A study of Sus scrofa with 4 samples.

Results

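The 37 genes described here encode proteins of the cytosolic ribosome, the particle that carries out protein synthesis outside mitochondria. They were every gene with a probe on a porcine Agilent array whose transcript accession matched a pig RefSeq gene named RPL or RPS with a digit, or RPLP0, RPLP1, RPLP2 or RPSA. Kinases named RPS6K and pseudogenes were left out. RefSeq lists 84 symbols of this kind for the pig, and 37 of the 3020 genes that could be named on the array were among them. They comprised 18 proteins of the large subunit, 16 of the small subunit and 3 paralogues, which are RPL7L1, RPL26L1 and RPL36AL. The genes were represented by 187 probes, and for each gene the probe with the highest mean signal over the 4 arrays stood for it. RPLP1, RPS6, RPS14, RPS19, RPS27A and RPL39 had no probe named in this way and were not analysed here.

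Spleen RNA of Minnesota miniature swine was measured on 4 one-colour arrays. The 3 wild-type (WT) arrays carried RNA of wild-type spleen, and the KO array carried that of a pig of genotype IL2RG +/-, called KO here after the study's name for its animals. IL2RG encodes the common gamma chain of several interleukin receptors, and the comparison asks how the spleen transcriptome differs when 1 copy of it is disrupted. The study made its KO pigs by somatic cell nuclear transfer from cells edited with TALENs, a pair of designed nucleases, so each is a clone of an edited cell. The age of the animals on these arrays, and whether the WT pigs were cloned too, are not given in the sources used here. The labels do not say that the WT arrays came from separate animals, so a p-value measures only the spread between these arrays, which may be technical. WT 1 and KO shared slide 1, and WT 2 and WT 3 shared slide 2.

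A ribosome joins a small subunit, which reads the messenger RNA, to a large subunit, which forms the peptide bond, and each is built of ribosomal RNA and many proteins. Most of these proteins are present once in each ribosome, and their genes are transcribed at high and closely matched rates in growing cells. Their messenger RNAs begin with a run of pyrimidines, the 5′ TOP motif, through which mTOR signalling controls their translation. Lymphocytes that are activated or dividing make many ribosomes, and in humans loss of 1 copy of RPSA causes isolated absence of the spleen.

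Of the 43803 spots other than controls on each array, between 66.1% and 72.7% were well above background, and none was saturated. All 187 probes of the ribosomal protein genes were well above background on all 4 arrays. IL2RG, the targeted gene, had its lowest value in KO on both of its probes, by 0.77 and 2.12 on the log2 scale against the WT mean, with limma adjusted p of 0.578 and 0.402. Several markers of spleen cell types had KO further from the WT arrays than any ribosomal protein gene. The B cell surface gene MS4A1 stood at 1.38, 0.38 and 1.00 on WT 1 to WT 3 and at -4.00 on KO. The macrophage receptor MRC1 stood at -1.51, -1.56 and -1.82 on WT and at 1.62 on KO. Neither passed the test described below for the ribosomal protein genes.

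The ribosomal protein genes were among the brightest features of every array. Each value is a log2 signal minus the array's own 75th percentile, so that a gene at 1 is 2 times as bright as that percentile. The 37 genes had medians of 7.97, 7.85 and 7.82 on WT 1 to WT 3 and of 7.58 on KO. On this scale KO had the lowest of these 4 medians, and WT 1 the highest, but the order hung on the scaling. With the arrays scaled to their medians, the median difference of KO was 0.12 from WT 2 and 0.18 from WT 3. After quantile normalisation that of WT 1 was -0.18 from WT 2 and -0.16 from WT 3. By mean signal, the 34 subunit genes all stood at or above the 97.2th percentile of the 33464 probes tested, and RPL26L1 was the dimmest of the 37 at the 92.3th percentile. A probe's brightness also depends on its own sequence, so the order of genes by signal is not an order of their transcript levels.

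The WT arrays were close to one another for these genes. The standard deviation (SD) over the 3 WT arrays had a median of 0.11 for the 37 genes, against 0.33 for all probes tested and 0.25 for the brightest 25% of them. It lay under the median of all probes for 35 of the 37 genes, and ran from 0.02 for RPL7 to 0.54 for RPL11. RPL7, a large subunit protein that binds ribosomal RNA, read 7.82, 7.85 and 7.82 on WT 1 to WT 3 and 7.40 on KO. Its WT values were nearly equal and its KO value lay below them. RPL11 read 8.52, 8.20 and 7.46 on WT and 8.27 on KO, so that WT 3 stood furthest out and KO lay within the WT values. These values are those of the brightest probe of each gene. On another RPL7 probe the SD was 1.02 and KO lay within the WT values. KO was below all WT arrays on 10 of the 14 RPL7 probes, against 34.9% of all probes. The other RPL11 probes had SDs of 0.05 and 0.12.

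**Figure D1:**
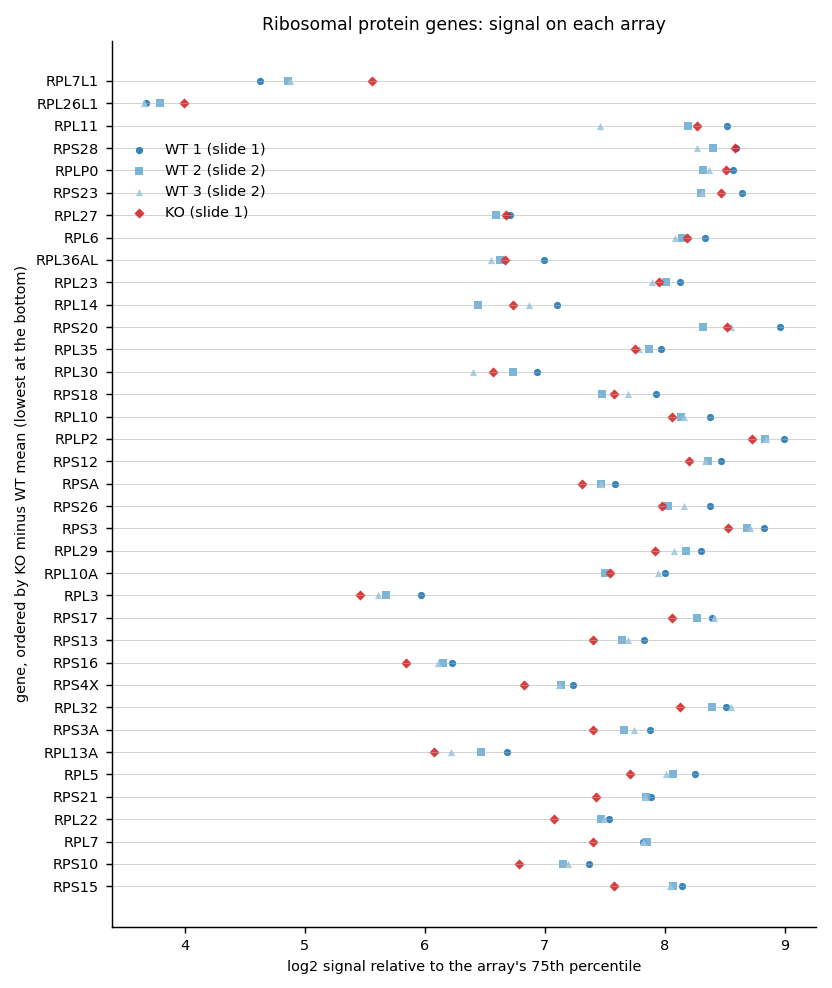
Log2 signal relative to the array's 75th percentile (horizontal axis) of the brightest probe of each of the 37 ribosomal protein genes on WT 1, WT 2, WT 3 and KO, ordered by the difference between KO and the WT mean. KO (red diamonds) lay below all 3 WT arrays for 22 genes and above all 3 for RPL26L1 and RPL7L1, against 34.9% and 27% of all probes. With the arrays scaled to their medians it lay below for 5 and above for 6, against 22.5% and 39.5% of all probes.

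No ribosomal protein gene passed the test between KO and WT. Passing required a limma p under 0.05 after Benjamini-Hochberg adjustment over all probes, together with a 2-fold difference, and 0 of 37 genes met both, as did 0% of the 33464 probes. At an unadjusted p of 0.05, 0 of the 37 genes passed, whereas 11.3% of all probes did. Under the other limma settings 0 to 5 of the 37 passed it, against 2.98% to 32.1% of all probes. The 5 came with normexp background correction, where 11.4% of all probes passed. By the methods' t-test, the unpaired test that the study names for these arrays with Bonferroni correction, 7 of the 37 passed an unadjusted p of 0.05, against 9.13% of all probes. After Bonferroni or Benjamini-Hochberg adjustment 0 of the 37 passed, and 0 of all probes. None of the 37 genes was 2-fold apart in either direction, although 21.1% of all probes were, 13.4% lower in KO and 7.71% higher. The adjusted p of limma ran from 0.453 to 0.996, and the 95% interval of the difference held 0 for all 37 genes. For 13 genes that interval lay wholly within a 2-fold difference either way. For the rest it reached past 2-fold, so that a 2-fold difference was within the error for those genes.

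The differences were small and leaned to one side. The difference was negative for 30 of the 37 genes (81.1%), against 56.9% of all probes, with a median of -0.19 against -0.11 for all probes and 0.12 for the brightest 25%, but with the arrays scaled to their medians in place of the 75th percentile it was negative for 16 genes and the median turned to 0.05. That scaling moved the median of all probes to 0.14, so relative to all probes the median of the 37 genes was -0.09 under both scalings. Relative to the brightest 25% of probes it was -0.32. KO lay below all 3 WT arrays for 22 genes (59.5%), against 34.9% of all probes, and above all 3 for 2 genes (5.41%), against 27% of all probes. Scaling to the array median gave 5 genes below and 6 above, against 22.5% and 39.5% of all probes. WT 1 weighed on the comparison with all probes: without it the median of the 37 genes was -0.15 and that relative to all probes -0.01, with 25 genes negative.

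The share of the total signal is taken within an array, so a factor that multiplies the whole array leaves it unchanged. Quantile normalisation and background correction can change it, and no share was taken after them. The 37 chosen probes held 3.44%, 3.50% and 3.54% of the summed processed signal on WT 1 to WT 3 and 2.70% on KO. All 187 probes of these genes, which are 0.429% of the probes, held 12.2%, 12.6% and 13.0% on WT and 9.43% on KO. KO had the smallest share by both counts, and the WT shares differed little. A share also moves when other bright probes change. With 1 KO array there is no spread between KO animals to set it against, and the smallest p that exact permutation of the 4 arrays allows is 0.25.

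**Figure D2:**
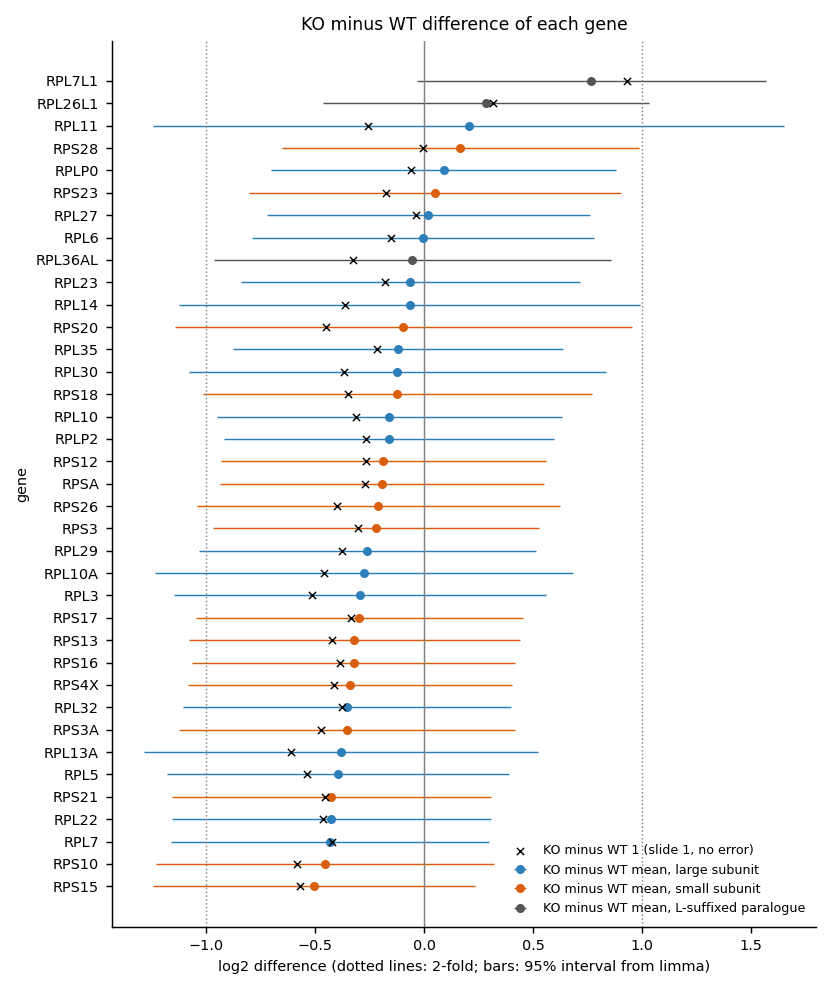
Difference between KO and the WT mean of each ribosomal protein gene (log2, filled points, with the 95% interval from limma) and between KO and WT 1 alone (crosses), which lay on the same slide. All 37 intervals hold 0, and 35 of 37 crosses are negative; dotted lines mark 2-fold, and with the arrays scaled to their medians the median of the filled points turns from -0.19 to 0.05.

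Within slide 1, KO was lower than WT 1 for nearly every gene, and this pair of arrays was the only one with KO whose direction held under every scaling tried. KO minus WT 1 was negative for 35 of 37 genes (94.6%), against 51.8% of all probes, and for all 34 subunit genes, with a median of -0.36 against -0.03 for all probes and 0.07 for the brightest 25%. The only genes above WT 1 were RPL7L1 and RPL26L1, and none was 2-fold from WT 1, against 16% of all probes. Under the other 6 scalings and background corrections the median ran from -0.44 to -0.13, with 28 to 35 genes negative. The highest of these medians, -0.13, came from scaling on the spike-in controls, which put the median of all probes at 0.21.

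Against the arrays of slide 2 the direction hung on the scaling. KO minus WT 2 had a median of -0.15 with 24 genes negative and KO minus WT 3 one of -0.14 with 26 genes negative, but with the arrays scaled to their medians these turned to 0.12 and 0.18 with 9 genes negative in each, and after quantile normalisation they were -0.42 and -0.46 with 34 negative in each. WT 1 was above the mean of WT 2 and WT 3 for 34 genes (91.9%), against 47.4% of all probes, with medians of 0.18 over WT 2 and 0.17 over WT 3, but quantile normalisation turned both, to -0.18 and -0.16. WT 2 and WT 3 lay close together, with a median of -0.00, 18 genes higher in WT 2 and 19 higher in WT 3. On the scale of the 75th percentile the 37 genes thus stood apart between WT arrays of different slides by about as much as KO stood below WT 2 or WT 3. The slide and the scan date coincided, and their part in the gap between WT 1 and the other WT arrays was not tested.

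Genes of both subunits were mostly negative on the scale of the 75th percentile, but not with the arrays scaled to their medians. Of the 16 small subunit genes 14 were negative, with a median of -0.26, and 12 had KO below all WT arrays, against 8, -0.01 and 3 with scaling to the array median. Of the 18 large subunit genes 15 were negative, with a median of -0.16, and 10 had KO below all WT arrays, against 8, 0.09 and 2 with that scaling. The shares over all probes were 56.9% negative and 34.9% below all WT arrays, or 41.5% and 22.5% with scaling to the array median. The difference between the subunits was not tested. Among all 34 the lowest was RPS15 at -0.51 and the highest RPL11 at 0.21.

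RPS15, a small subunit protein near the decoding site, read 8.15, 8.07 and 8.04 on WT and 7.58 on KO. Its difference was -0.51 ± 0.26 (standard error, SE), 1.42-fold lower, with a limma adjusted p of 0.540. This was the lowest difference of the 37 genes, and KO lay clear of the WT values. RPS10, a small subunit protein whose loss is one cause of Diamond-Blackfan anemia, a failure of red cell production, read 7.37, 7.15 and 7.19 on WT and 6.78 on KO. RPS21, a small subunit protein, read 7.89, 7.84 and 7.84 on WT and 7.43 on KO. By the brightest probe of both genes the gap between KO and the nearest WT array was wider than the range of the WT arrays. KO lay below all WT arrays on 5 of the 6 RPS10 probes and 2 of the 3 RPS21 probes, against 34.9% of all probes. On the remaining probe of each gene KO lay within the WT values. RPS4X, the small subunit protein encoded on the X chromosome, read 7.24, 7.14 and 7.12 on WT and 6.83 on KO, with a difference of -0.34.

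RPS3, which lines the channel where messenger RNA enters the small subunit and also acts in DNA repair, read 8.83, 8.69 and 8.72 on WT and 8.52 on KO. RPSA, the small subunit protein tied to absence of the spleen in humans, read 7.58, 7.47 and 7.47 on WT and 7.31 on KO. Its difference was -0.19 ± 0.27 (SE), with a 95% interval of -0.94 to 0.55 and a limma adjusted p of 0.779. Both had KO below all WT arrays, and both differences turned positive, to 0.03 and 0.05, with the arrays scaled to their medians. RPS20 read 8.97, 8.32 and 8.55 on WT and 8.52 on KO, and RPS28, another gene mutated in Diamond-Blackfan anemia, read 8.60, 8.41 and 8.27 on WT and 8.59 on KO. For these small subunit genes the KO value lay among the WT values.

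RPL5 and RPL11 bind the 5S ribosomal RNA together, and outside the ribosome the same complex binds MDM2, the inhibitor of p53. RPL5 read 8.25, 8.07 and 8.01 on WT and 7.71 on KO, a difference of -0.39 ± 0.28 (SE) with a limma adjusted p of 0.612. RPL11 by its brightest probe had a difference of 0.21 ± 0.52 (SE) with a limma adjusted p of 0.886. Its other probes read against this sign, with differences of -0.47 and -0.41 and with KO below all WT arrays on both. Without WT 3 the brightest probe too was negative, at -0.09, and against WT 1 it was -0.26.

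RPL22, a large subunit protein with a known part in the development of αβ T cells, read 7.54, 7.47 and 7.49 on WT and 7.08 on KO. Its difference was -0.43 ± 0.26 (SE), with a limma adjusted p of 0.578, and its 3 probes lay between -0.44 and -0.40. KO was below all WT arrays by more than the range among them. RPLP0 and RPLP2 form part of the stalk through which the large subunit recruits elongation factors. RPLP0 read 8.57, 8.32 and 8.37 on WT and 8.51 on KO, and RPLP2 read 8.999, 8.84 and 8.84 on WT and 8.73 on KO. By its brightest probe RPLP0, often used as a reference gene, lay within the WT range, and RPLP2 lay below it. The difference of RPLP2 turned to 0.085 with the arrays scaled to their medians. That RPLP0 probe was at 0.09 on the scale of the 75th percentile and at -0.16 after quantile normalisation. Of the 13 probes of RPLP0, 11 were negative on the scale of the 75th percentile. On 10 of the 13 KO lay below all WT arrays, against 34.9% of all probes.

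RPL3, which lies near the peptidyl transferase centre, read 5.97, 5.68 and 5.61 on WT and 5.46 on KO. RPL10, a protein added late in the maturation of the large subunit, read 8.38, 8.13 and 8.16 on WT and 8.07 on KO. In both, KO was below every WT array while WT 1 stood apart above WT 2 and WT 3. RPL14 by its brightest probe read 7.10, 6.44 and 6.87 on WT and 6.74 on KO, within the WT range. Its other 4 probes on the same scale had differences between -0.32 and -0.23. On each of them KO lay below all WT arrays, against 34.9% of all probes. The brightest probe had the widest WT spread of the 5, with an SD of 0.33 against 0.03 to 0.10 on the others. Of the 19 genes listed for Diamond-Blackfan anemia 8 were measured, and 5 of them were negative, against 56.9% of all probes, with a median of -0.17 that turned to 0.08 with the arrays scaled to their medians.

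Of the 3 paralogues, RPL7L1 and RPL26L1 had KO above all WT arrays. RPL7L1, a nucleolar relative of RPL7 that takes part in assembling the large subunit, read 4.62, 4.86 and 4.88 on WT and 5.56 on KO. Its difference of 0.77 ± 0.29 (SE), 1.70-fold higher, was the largest of the 37 genes in either direction, with a 95% interval of -0.03 to 1.57 and a limma adjusted p of 0.453. Its other 2 probes gave 0.09 and 0.19, also with KO above all WT arrays. RPL26L1, a close relative of RPL26, read 3.68, 3.80 and 3.66 on WT and 3.99 on KO, and its 4 probes all had KO above every WT array, with differences between 0.28 and 0.49. Scaling on the spike-in controls put both genes below 0, RPL7L1 at -0.14 and RPL26L1 at -0.62, with the median of all probes at -1.01. RPL36AL, a relative of RPL36A, read 6.998, 6.63 and 6.56 on WT and 6.67 on KO, within the WT range.

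Most of the other probes of these genes were negative too on the scale of the 75th percentile. Against the WT mean 161 of the 187 probes were negative and 26 positive, with a median of -0.28 and a range of -0.80 to 0.77, and with the arrays scaled to their medians 104 were negative, with a median of -0.03. KO lay below all WT arrays on 131 of the 187 probes and above all on 8, and with the arrays scaled to their medians on 61 and 19. Over all probes tested, KO was below all WT arrays on 34.9% and above on 27%, and on 22.5% and 39.5% with that scaling. With the median over the probes of each gene in place of the brightest probe, 33 of 37 genes were negative and their median was -0.28. Of the 31 genes with several probes, 19 had all of them negative, 9 had probes of both signs, and RPS28, RPL26L1 and RPL7L1 had all of them positive. Probes of 1 gene read the same transcript and are not replicates, and ribosomal protein genes have many processed pseudogenes in mammalian genomes, whose transcripts a probe could also bind. That was not tested, as the probe sequences were not used here.

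**Figure D3:**
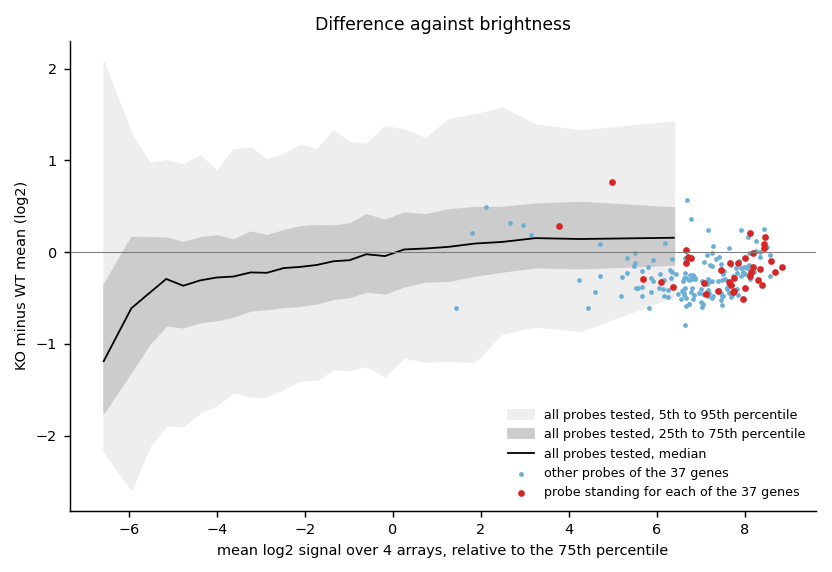
Difference between KO and the WT mean (log2, vertical axis) against mean log2 signal over the 4 arrays relative to the 75th percentile for the 187 probes of the ribosomal protein genes (red, the probe that stands for each gene; blue, the others), with the median, 25th to 75th and 5th to 95th percentiles of all 33464 probes tested in 25 bins of brightness. Most points lie below the line of all probes, which is at 0.16 in the brightest bin; the zero line depends on the scaling, and with the arrays scaled to their medians the median of the 37 genes turns from -0.19 to 0.05.

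Probes of 1 gene gave the most alike values for KO against WT 1, the pair of arrays on slide 1. Over the 31 genes with several probes, the range of KO minus WT 1 between the probes of a gene had a median of 0.14. The same range had a median of 0.29 for KO against the WT mean, 0.50 for KO minus WT 2, 0.24 for KO minus WT 3, 0.40 for WT 1 minus WT 2, 0.29 for WT 1 minus WT 3 and 0.34 for WT 2 minus WT 3. It was narrower for KO minus WT 1 than for KO minus the WT mean in 27 of 31 genes. RPL7 shows the pattern in its 14 probes, whose KO minus WT 1 lay between -0.54 and -0.40. Against the WT mean the same probes ran from -0.49 to 0.57. The probe at 0.57 read 7.59, 5.56 and 6.45 on WT 1 to WT 3 and 7.10 on KO, so WT 2 and WT 3 read low on it while WT 1 and KO did not.

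The same held for other genes with many probes. The 18 probes of RPL5 gave KO minus WT 1 between -0.63 and -0.43 and KO minus the WT mean between -0.61 and -0.25. The 13 probes of RPLP0 gave KO minus WT 1 between -0.21 and -0.06, all negative, although the brightest of them was positive against the WT mean. The 7 probes of RPS20 gave KO minus WT 1 between -0.45 and -0.23 and KO minus WT 2 between 0.11 and 1.02. For RPS20, KO thus stood above WT 2 and below WT 1 on every probe. Of all 187 probes KO was below WT 1 on 179, below WT 2 on 141 and below WT 3 on 145, and with the arrays scaled to their medians on 165, 80 and 74. The median coefficient of variation between replicate spots of a probe was 4.32% on WT 1 and 4.50% on KO, against 7.48% on WT 2 and 7.16% on WT 3, and its part in the wider ranges was not tested.

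**Figure D4:**
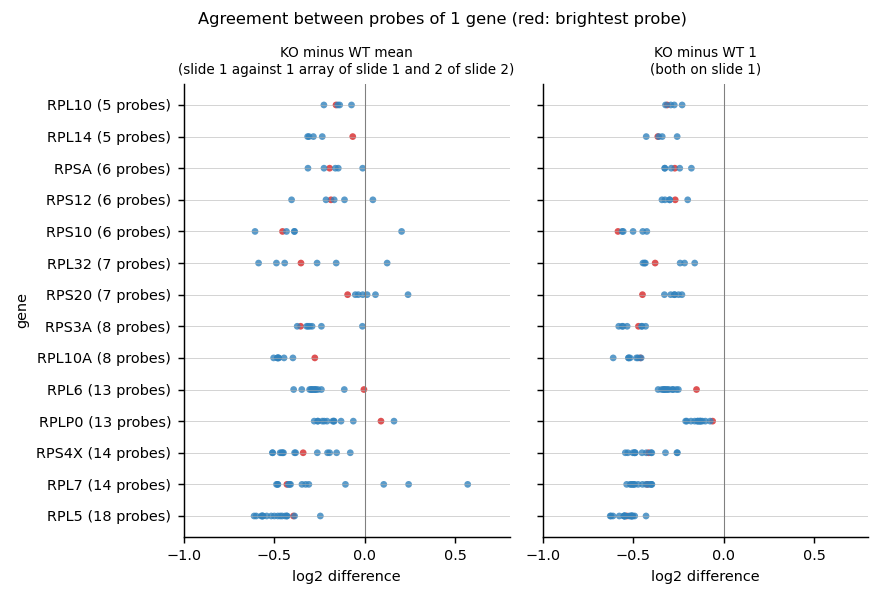
Log2 differences of single probes for the 14 ribosomal protein genes with at least 5 probes, for KO minus the WT mean (left) and KO minus WT 1, both on slide 1 (right); red marks the brightest probe. Probes of a gene lie closer together on the right, as for the 14 RPL7 probes, which run from -0.49 to 0.57 on the left and from -0.54 to -0.40 on the right; both panels shift as a whole with the scaling of the arrays, and scaling to the array medians turns the median of the 37 genes from -0.19 to 0.05.

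The other lists of protein synthesis had medians on both sides of 0, and their difference from the ribosomal protein genes was not tested. Of 51 listed translation factors 10 were measured, and 9 of them were positive, with a median of 0.15, though scaling on the spike-in controls turned that median to -0.75. EIF6, which keeps the subunits apart until the large one is mature, read 4.61, 4.62 and 4.45 on WT and 5.16 on KO. EIF4A1, the helicase that unwinds messenger RNA for initiation, read 3.41, 2.81 and 3.08 on WT and 3.60 on KO. Both had KO above all WT arrays, with limma adjusted p of 0.499 and 0.615. Among the 5 of 20 other genes listed with a 5′ TOP motif, the median was 0.08, which turned to -0.23 after quantile normalisation. RACK1, a protein bound to the small subunit, read 7.58, 7.58 and 7.58 on WT and 7.22 on KO, a difference of -0.36. TPT1 stood on the other side, at 9.21, 9.02 and 9.02 on WT and 9.31 on KO. The size of both differences hung on the probes and the scaling. Over the mean of the probes of each gene they were -0.16 for RACK1 and 0.37 for TPT1. After quantile normalisation they were -0.51 and 0.003, and with the arrays scaled to their medians -0.12 and 0.47. None of these genes passed the test.

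Of 61 genes listed for ribosome biogenesis 8 were measured, 5 of them negative, with a median of -0.06 that turned to 0.18 with the arrays scaled to their medians. NOP56, a core protein of the particles that methylate ribosomal RNA, read 5.31, 5.73 and 5.44 on WT and 4.72 on KO, a difference of -0.78 ± 0.31 (SE) with a limma adjusted p of 0.472. UTP3, a factor of small subunit processing, read 2.29, 1.61 and 1.84 on WT and 2.35 on KO. The 2 genes thus lay outside the WT range on opposite sides. Of 30 genes of the mTOR and S6 kinase pathway 4 were measured, with a median of -0.21, or 0.04 with the arrays scaled to their medians. EIF4EBP2, a repressor of the cap-binding factor, read 1.86, 2.42 and 2.89 on WT and 1.19 on KO, and MYC, which drives transcription of ribosomal genes, read 2.27, 2.02 and 2.34 on WT and 1.93 on KO. Neither passed the test. The EIF4EBP2 values came from the brighter of its 2 probes. Over the mean of both probes its difference was -0.42, in place of -1.20.

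The proteins of the mitochondrial ribosome, a separate particle, were measured for 7 genes. Of these 5 were positive, with a median of 0.19 that turned to -0.18 against WT 1 alone and to -0.72 with scaling on the spike-in controls. MRPL2 read 1.19, 1.80 and 1.56 on WT and 0.91 on KO, and MRPL52 read 2.62, 2.26 and 2.15 on WT and 2.77 on KO. Each lay outside the WT range, and they lay on opposite sides of it.

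**Figure D5:**
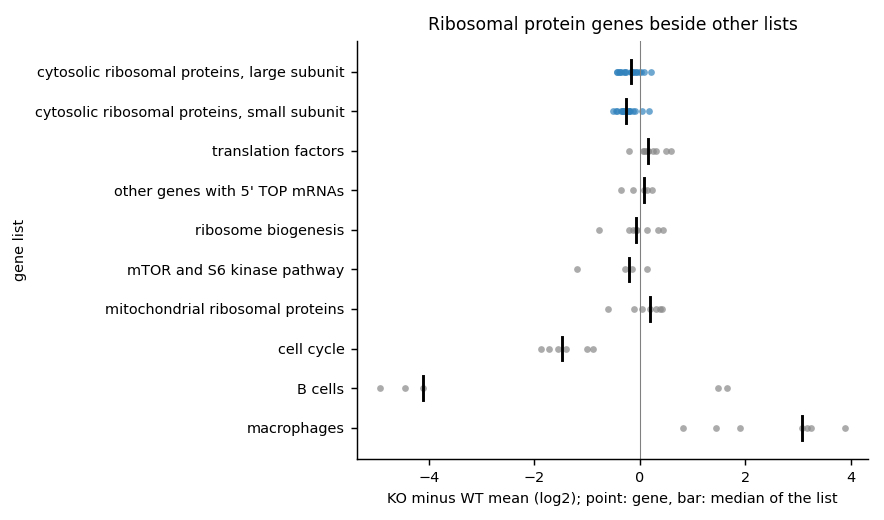
Difference between KO and the WT mean (log2) of the measured genes of each list; each point is a gene and each bar the median of its list. The subunit genes lie between -0.51 and 0.21, a narrower span than that of any other list shown except the 5 other TOP genes; zero depends on the scaling, and with the arrays scaled to their medians the large subunit median turns from -0.16 to 0.09 and that of all 37 genes from -0.19 to 0.05.

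Some markers of cell types and of division also had KO apart from WT, and others did not. Of the 4 measured neutrophil genes and the 2 measured erythroid genes, 0 had KO outside the WT range. On those lists WT 1 stood below the mean of WT 2 and WT 3, with medians of -4.90 and -6.46. Of the 8 measured T cell genes 3 had KO above all WT arrays and 1 below, with a median difference of 0.16. All 6 measured cell cycle genes, of 18 listed, had KO below all WT arrays, against 34.9% of all probes, with a median of -1.47. Their summed linear level was 20.5, 39.0 and 42.6 on WT and 11.2 on KO, in units of the 75th percentile. All 7 measured macrophage genes, of 12, were positive, and 6 had KO above all WT arrays, against 27% of all probes. Their median was 3.08, with a summed level of 90.6 to 112 on WT and 329 on KO. Of 14 B cell genes 5 were measured, and MS4A1 and CD79A had differences of -4.92 and -4.12, while CD40 and CD72, which other cells also express, were positive. None of these passed the test, with limma adjusted p of 0.284 for MS4A1 and for MRC1. On the scale of the 75th percentile KO had both the lowest cell cycle sum and the lowest median of the ribosomal protein genes. Among the WT arrays, WT 1 had the lowest cell cycle sum and the highest such median. After quantile normalisation the median difference of the 37 genes was -0.18 for WT 1 minus WT 2 and -0.16 for WT 1 minus WT 3. How cell cycle and ribosomal protein values go together was not tested. In bulk tissue fewer cells of a type and less RNA per cell cannot be told apart, and the part of cell composition in the ribosomal protein values was not tested.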

How the data were processed

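Per the labels, each array received amplified RNA of 1 sample carrying Cy3. The file headers list 1 channel, whereas the study's methods name a dye pair, so values are taken as one-colour. The deposited intensity is the processed signal of Feature Extraction 11.0.1.1, background-corrected by the authors' software, with no scaling across arrays. The deposited series table holds log2 values of the authors, quantile-normalised as judged from its columns, whose sorted values differ by at most 0.00154. It served as an alternative.

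Outlier spots were left out, which removed 28 probes. Log2 processed signals had the array's 75th percentile subtracted, and replicate spots of 1 probe were then averaged. Probes well above background on at least 1 array were tested, 33464 of 43575. KO and WT were compared by limma 3.58.1 in R 4.3.3 (lmFit, eBayes, two-sided), with 2 residual and 1.93 prior degrees of freedom, so that KO was given the spread of WT. The script was checked on simulated data. Tables were made with Python 3.11.15, pandas 2.3.3 and numpy 2.4.6. The number of arrays limits the precision.

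Accessions were matched to RefSeq transcripts of Sscrofa11.1 for naming, and 6686 of 43603 probes (15.3%) had a match. No probe, transcript or protein sequence was used here, and no coordinates are given, since the file headers name no build. Normexp was run on the median signal in place of the mean signal. Groups came from the sample titles. Lists were summarised by counts and medians, with no test of a list. The 37 genes and the gene lists were chosen with earlier results of these data known. Genes named are the 5 highest and 5 lowest differences, the 3 brightest and dimmest, the 3 with the largest and smallest WT SD, genes of known roles, all paralogues and the 2 largest differences of each other list; CD79A, CD40 and CD72 were named after their values were seen. Some genes that the rule names are not reported here. Alternatives covered the scaling, background correction, filter, probe of a gene, slide, replicates and test.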

Additional observations from a re-analysis of the deposited data

How the results depend on the processing

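No ribosomal protein gene passed the adjusted threshold under the 15 alternatives in which it was tested, with adjusted p from 0.148 upward. Of 797 values of 61 results, 627 stayed as reported, 112 moved, 57 turned sign and 1 (MS4A1, on the spike-in controls) newly passed. The sign changed with the scaling: the median over the 37 genes was 0.052 with the median shift, -0.31 with the percentile over probes detected on all 4 arrays, -0.39 after quantile normalisation, -0.39 in the deposited table, -0.36 with the slide as a block and -0.28 over the probes of a gene. It was -1.10 on the spike-in controls, an alternative chosen, like the probe median, after seeing the data; WT 1 minus WT 2 was then -1.58, the median of all probes was -1.01, 26 genes were 2-fold lower, against 51% of all probes, and 0 lay above the WT range, against 3.48%. The median shift gave 1 gene 2-fold higher, against 11.7% of all probes, and 16 negative, against 41.5%. It put 5 below and 6 above the WT range, against 22.5% and 39.5% of all probes. Leaving out WT 1 gave 9 above, against 36.7% of all probes. Without 1 WT array the count above ran from 2 to 9, against 30% to 36.7% of all probes. The median of the 37 genes then ran from -0.25 to -0.15. Relative to all probes the median was 0.022 without a filter, -0.18 with normexp, -0.36 after quantile normalisation, -0.37 in the deposited table, -0.34 with the slide as a block, and from -0.15 to -0.0080 without 1 WT array. The cause of these shifts was not tested.

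Single genes turned too. With the median shift, RPL10 was 0.087, RPL14 0.18, RPL36AL 0.19, RPLP2 0.085, RPS20 0.15, RPS3 0.027 and RPSA 0.052. With normexp, RPL14 was 0.029, RPS20 0.011 and RPLP0 -0.036. With 1 WT array left out, RPL11 ran from -0.094 without WT 3 to 0.44, and RPL14 from -0.25, RPL36AL from -0.14 and RPS20 from -0.24 to 0.082 without WT 1. Over the mean of their probes RPL11 was -0.22, RPLP0 -0.15 and RPS20 0.017. With the slide as a block RPL11 was -0.26, RPLP0 -0.061 and RPS28 -0.0059. RPLP0 was -0.023 with the percentile over detected probes. In the deposited table RPLP0 was -0.16 and RPS28 -0.11, and after quantile normalisation -0.16 and -0.11. On the spike-in controls RPL11 was -0.70, RPL26L1 -0.62, RPL7L1 -0.14, RPLP0 -0.82, RPS28 -0.74, EIF4A1 -0.41, EIF6 -0.31, MRPL52 -0.48, TPT1 -0.68 and UTP3 -0.47.

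Of the lists, the median shift turned the large subunit to 0.086, the mTOR pathway to 0.035 and ribosome biogenesis to 0.18, the last also 0.057 over the mean of probes and 0.022 with normexp. The spike-in controls turned mitochondrial ribosomal proteins to -0.72, translation factors to -0.75 and the other TOP genes to -0.82. The slide as a block turned mitochondrial ribosomal proteins to -0.18 and the TOP genes to -0.036, and these were -0.028 over detected probes, -0.23 in the deposited table, -0.23 after quantile normalisation, and ran from -0.063 without WT 2 to 0.22 without WT 1. For groups of members, the median shift turned the Diamond-Blackfan genes to 0.080, RPL5 with RPL11 to 0.15 and RPLP0 with RPLP2 to 0.21, and the spike-in controls turned the paralogues to -0.62. With 1 WT array left out, RPL5 with RPL11 ran from -0.27 to 0.056 and RPLP0 with RPLP2 from -0.075 to 0.028, both highest without WT 1. No paired analysis was possible because the KO title carries no replicate number, so the only block fitted was the slide.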
